A study of Homo sapiens with 31 samples.

Results

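The CTBP2 sites described here were bound in MOLM1 cells and had no peak in any of 12 peak lists of EVI1 and CTBP2 in MUTZ3 cells. CTBP2 is a corepressor that does not bind DNA by itself and is brought to chromatin by DNA-binding proteins such as EVI1, a zinc-finger transcription factor that is activated in leukemias with rearrangements of chromosome 3q26. At its sites CTBP2 brings histone deacetylases and histone methyltransferases, which lower the activity of nearby genes. In blood cells many regulatory elements lie far from gene starts and are occupied by combinations of ETS, RUNX, GATA and AP-1 factors, and these combinations differ between cell types.

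MOLM1 and MUTZ3 are human leukemia cell lines with a 3q26 rearrangement, labelled as chronic myeloid leukemia in blast crisis and acute myelomonocytic leukemia. The MOLM1 library was a CTBP2 ChIP-seq of 1 clone of MOLM1 that carries a doxycycline-inducible short hairpin against EVI1 and was not treated, so the hairpin was not induced. The MUTZ3 lists came from 12 libraries. They were EVI1 and CTBP2 in unmodified cells (1 library each), CTBP2 in cells with retroviral 4xPLASS, a mutated control peptide (2 libraries), and CTBP2 and EVI1 in cells with inducible 4xPLDLS, a peptide that competes for CTBP, at 72 h with and without doxycycline (2 libraries for each target and treatment). The lines were grown in different media and the MOLM1 library is labelled as crosslinked with DSG, whereas the label of its input and the sample list of the study give a single crosslink. The cell lines, the hairpin vector, the media, the crosslink and the libraries cannot be told apart in these data. The peak lists hold no expression values, so the label MOLM1 could not be checked against marker genes.

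Sites were chosen by the MOLM1 fold enrichment and the MUTZ3 peak calls. A site was taken as a member when its peak had a fold enrichment of at least 10 in MOLM1, lay on chromosomes 1 to 22 and shared no base with a peak of the 12 MUTZ3 lists. The fold enrichment is the authors' MACS2 value at the peak summit over the local background. The MOLM1 list held 64569 peaks, of which 14999 passed the fold limit on these chromosomes, and 2588 of these had no MUTZ3 peak. This is 17.3% of the peaks above the limit, a share set by the rule itself and not a finding. The 13 lists together held 533140 peaks, from 6688 to 72214 in a list. The other 12411 MOLM1 peaks above the limit overlapped at least 1 MUTZ3 peak and are called shared peaks below. With 1 MOLM1 library there was no replicate error and no test. Intervals are 95% Wilson intervals of shares and cover counting error only, and the lists give no read numbers, so the depth of the libraries is unknown.

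The reference sequences at some of these sites are shown for their motif letters or their strength. They were picked for this and are not a cross-section, since 281 of the members (10.9%) hold AP-1 letters in a span of this length. Each is 61 bases around a summit, read from GRCh37 (hg19) on the plus strand, with AP-1 letters (TGANTCA), ETS letters (GGAAGT) and RUNX letters (TGTGGT), or their reverse complements, in capitals. The first 4 belong to strong sites with an AP-1 match close to the summit, the next is from the gene with the most members, and the last 4 are strong sites without an AP-1 match here.
AREGB site, chr4:75554214-75554274: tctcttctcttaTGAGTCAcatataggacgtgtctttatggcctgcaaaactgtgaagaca
LYRM7 site, chr5:130440280-130440340: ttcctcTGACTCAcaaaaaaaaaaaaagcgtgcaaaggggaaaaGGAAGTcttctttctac
ITGBL1 site, chr13:102173233-102173293: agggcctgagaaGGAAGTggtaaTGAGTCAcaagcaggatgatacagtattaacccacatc
BCKDHB site, chr6:80875047-80875107: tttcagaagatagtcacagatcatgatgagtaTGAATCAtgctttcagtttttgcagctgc
ACVR2A site, chr2:147631992-147632052: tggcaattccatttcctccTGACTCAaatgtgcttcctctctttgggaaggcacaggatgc
PEX5L site, chr3:179674527-179674587: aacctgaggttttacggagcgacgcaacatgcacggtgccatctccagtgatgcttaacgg
MZT1 site, chr13:72957995-72958055: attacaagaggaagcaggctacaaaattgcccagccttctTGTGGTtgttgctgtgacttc
LARP1B site, chr4:129076926-129076986: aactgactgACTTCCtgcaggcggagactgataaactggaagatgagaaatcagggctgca
ZNF462 site, chr9:109520086-109520146: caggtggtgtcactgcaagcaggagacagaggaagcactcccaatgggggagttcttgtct
The LYRM7 and ITGBL1 sites hold an ETS match beside the AP-1 match, and the PEX5L site, the strongest of all members, holds none of the 3 motifs in these bases. Sites are named by the protein-coding gene with the nearest transcription start site (TSS), which says nothing about regulation of that gene.

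MOLM1-only sites were weaker than the shared peaks above the same limit. Their fold enrichment ran from 10.0 to 37.8 with a median of 12.4 and quartiles of 10.9 and 15.1. The shared peaks had a median of 14.3 and reached 69.1. Of the members, 655 reached a fold enrichment of 15, 200 reached 20 and 14 reached 30, and the strongest ranked 160 of the 64569 MOLM1 peaks. The share of peaks without a MUTZ3 peak fell from 24.9% (23.7 to 26.2) at a fold enrichment of 10 to 12 to 7.18% (6.28 to 8.19) at 20 or more. This order belongs to the values that chose the members. Members were also narrower, with a median width of 228 bp beside 304 bp for shared peaks, and had a lower GC content within 100 bp of the summit, a median of 46.3% beside 52.2%.

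**Figure D1:**
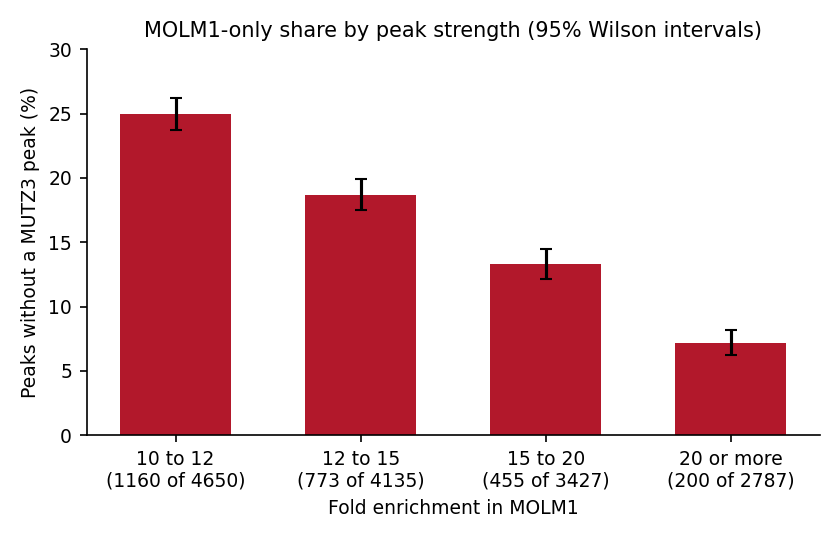
Share of MOLM1 CTBP2 peaks without a MUTZ3 peak (y axis, %) in 4 ranges of MOLM1 fold enrichment (x axis). Bars are shares, error bars 95% Wilson intervals, and the numbers below give members of all peaks. The bars fall from 24.9% in the weakest range to 7.18% in the strongest.

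Peaks at the fold limit differed by thousandths. The members just inside were nearest to VPS8 (10.0086), ZFP36L2 (10.0086) and HSPA13 (10.007), and the MOLM1-only peaks just outside were nearest to YTHDF3 (9.99459), CITED4 (9.99421) and ARID1B (9.99421). Below the limit lay a further 17239 MOLM1-only peaks, so the members are the strong end of 19827 such peaks.

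Almost all members lay away from gene starts. A summit within 1 kb of a protein-coding TSS was found for 34 members, or 1.31% (0.942 to 1.83), beside 12.3% (11.7 to 12.9) of the shared peaks. The median distance to the nearest TSS was 61550 bp for members and 26940 bp for shared peaks. Over 100 kb from any protein-coding TSS lay 37.7% of the members and 19.6% of the shared peaks, and over 500 kb lay 195 members (7.53%) and 1.77% of the shared peaks. Neither interval of the 1 kb shares reaches the other group.

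The distance of shared peaks differed between those in few and those in many MUTZ3 lists. Shared peaks found in 1 to 4 lists had 1.73% within 1 kb of a TSS and a median distance of 42240 bp, which placed them between the members and the rest. In 5 to 11 lists the share was 15.1% with a median of 23746 bp, and in all 12 lists it was 14.9% with 23864 bp, with no further trend between these groups. Among strong peaks the difference within 1 kb was smaller. At a fold enrichment of 20 or more 2.50% (1.07 to 5.72) of the members and 6.42% (5.54 to 7.43) of the shared peaks lay within 1 kb, with overlapping intervals. At this strength the medians were 70528 and 31532 bp. With the start of every protein-coding transcript counted, the shares within 1 kb were 2.86% for members and 17.4% for shared peaks.

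**Figure D2:**
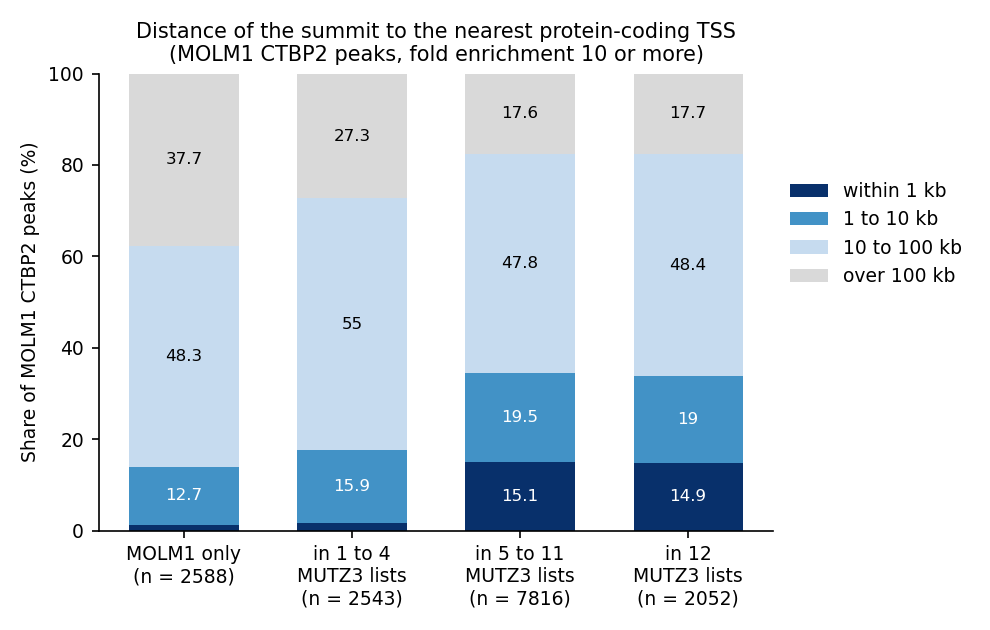
Distance of MOLM1 CTBP2 summits to the nearest protein-coding TSS, as stacked shares of peaks (y axis, %), for MOLM1-only sites and for peaks found in 1 to 4, 5 to 11 or 12 MUTZ3 lists (x axis). The darkest segment, within 1 kb, holds 1.31% of the MOLM1-only sites and 14.9% of the peaks in 12 lists, and the top segment, over 100 kb, holds 37.7% and 17.7%.

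By place, 1247 members (48.2%) were intergenic, 1222 (47.2%) lay in an intron and 119 (4.60%) in an exon of a protein-coding gene. Among shared peaks 44.3% were intergenic, 45.7% intronic and 10.0% exonic, so the exonic share was the one that differed most in relative terms.

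The 34 members close to a gene start included CPA3, the carboxypeptidase of mast cell granules. Its peak lies on chromosome 3 from 148582795 in an exon, its summit is 19 bp downstream of the TSS, and its fold enrichment was 21.9 with a −log10 q of 107.5. The nearest MUTZ3 peak was 78.2 kb away. At ME1, the cytosolic malic enzyme, the summit lay 156 bp upstream of the TSS with a fold enrichment of 21.3 and an AP-1 match. SPATA12 had a fold enrichment of 21.5 and ACAA2, an enzyme of fatty acid oxidation in mitochondria, 17.7. IL7, the lymphoid cytokine, had 10.8 at 14 bp and GPR65, a proton-sensing receptor of immune cells, had 13.6 at 8 bp from the TSS. ADAM23, a metalloprotease-like surface protein, had 2 members there with 16.8 and 10.2, each 192 kb from a MUTZ3 peak.

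The 20 strongest members spread over the genome and none lay within 1 kb of a TSS. Of these, 10 were intergenic, 9 intronic and 1 exonic, 10 were over 100 kb from a TSS, and their fold enrichment ran from 28.0 to 37.8. PEX5L, which encodes a relative of the peroxisomal import receptor, held the strongest in its own intron, 80.3 kb from the TSS and 17.3 kb from the nearest MUTZ3 peak. The next, with 35.3, lay in an intron of EZH1, a histone H3K27 methyltransferase of Polycomb, although the TSS of the chemokine receptor gene CCR10 was the nearest.

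The third site had a fold enrichment of 33.4 and lay 810 kb upstream of ALCAM, a cell adhesion molecule, in intergenic DNA 160 kb from the nearest MUTZ3 peak. SLC15A5 (33.3), MZT1 (33.1), ZNF462 (32.7) and ADAMTS20 (32.3) followed with intergenic sites more than 100 kb from the TSS and from 212 to 499 kb from a MUTZ3 peak. These 4 genes encode a peptide transporter, a component of the γ-tubulin complex, a zinc-finger protein and a metalloprotease. The sites of PTTG1IP (33.2), LARP1B (32.7), PDE4D (29.7) and DOK5 (28.9) were in introns of those genes, which encode a PTTG1-binding protein, an RNA-binding protein, a cAMP phosphodiesterase and an adapter protein. Other intronic sites lay in CKAP4 (nearest TSS of TCP11L2, 31.8), CPQ (TSPYL5, 31.1) and FHIT (CFAP20DC, 31.0).

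The one exonic site (31.2) lay in SGCE, a sarcoglycan gene, with the TSS of the imprinted gene PEG10 35.4 kb away. The rest were intergenic, near POU3F3 (31.2), ENDOD1 (29.3), AREGB (29.2), ARAP2 (28.1) and TNFRSF11B (28.0), the gene of osteoprotegerin. The gap from a top site to the nearest MUTZ3 peak ran from 3.35 to 499 kb with a median of 35.9 kb. No gene of the 7 lineage and corepressor lists described below was among these 20.

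Most members had a MUTZ3 peak within 50 kb. MUTZ3 sites were dense, with a median of 32 in the 1 Mb windows that held a member. The gaps of other positions were not measured, so the distances below are not a trait of the members. The median gap to the nearest MUTZ3 peak was 11 kb, with quartiles of 3.10 and 43.6 kb. Up to 1 kb away lay 290 members (11.2%), of which 78 were within 200 bp, 939 were 1 to 10 kb away, 775 were 10 to 50 kb away and 584 (22.6%) farther. A shared peak of fold enrichment 10 or more was within 50 kb of 1086 members (42.0%).

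Members were scattered singly more than in clusters. Another member lay within 50 kb of 616 members, or 23.8% (22.2 to 25.5). For an equal number of shared peaks, taken at even steps in the order of fold enrichment, the value was 26.6% (24.9 to 28.3). Joined at this distance, members formed 35 runs of 3 or more and 2 of 4 or more, beside 61 and 15 for these shared peaks. The larger run held 5 members within 13.3 kb upstream of ACVR2A, a receptor of activin, and the other held 4 in 49.5 kb at NTM, a neural cell adhesion gene. Of 2897 windows of 1 Mb, 1458 held a member and 7 held at least 7.

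The fullest window, on chromosome 5 from 52000001 to 53000000, held 9 members and 3 shared peaks. It contains ITGA1 and ITGA2, which encode subunits of collagen-binding integrins, and FST, which encodes the activin-binding protein follistatin, and its strongest member reached 21.7. Windows at ACVR2A on chromosome 2 and at ZNF462 on chromosome 9 held 8 members each, with 1 and 0 shared peaks. MUTZ3 sites, merged over the 12 lists, numbered 17 in the ITGA2 window, 5 in the ACVR2A window and 0 in the ZNF462 window, beside a median of 32 for windows with a member.

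The other windows, with 7 members each, lay at TANC2 on chromosome 17 (10 shared peaks), TRIB2 on chromosome 2 (9), ATXN1 on chromosome 6 (4), and EXT1 with TNFRSF11B on chromosome 8 (0 shared peaks and 1 MUTZ3 site). TANC2 encodes a scaffold protein, TRIB2 a pseudokinase linked to leukemia, ATXN1 a transcriptional repressor and EXT1 an enzyme of heparan sulfate synthesis. By chromosome, members made up from 6.23% of the strong MOLM1 peaks (chromosome 19) to 27.1% (chromosome 4). Copy number of the 2 lines was not measured here, and its part in these windows was not tested.

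By nearest TSS, 1938 of 19229 protein-coding genes, or 10.1%, had a member. There was 1 member at 1487 of these genes and 451 had more, 41 of them at least 4. Of the 1938 genes, 1114 also had a shared peak and 824 had none. Over all 19229 protein-coding genes, 6465 (33.6%) had a shared peak, so genes with a member had one more often than genes in general. ACVR2A had the most, with 10 members and no shared peak. Of these, 9 lay upstream from 155 to 970 kb, the most distant being the strongest (19.4), and 1 lay in an intron 22.7 kb into the gene (10.4). ZNF462 had 8 members and no shared peak. Its strongest pair, 105 and 110 kb upstream, reached 32.7 and 26.6, and both were far from the nearest MUTZ3 peak, at 499 and 503 kb.

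ARAP2, BCL11A and AUTS2 had 6 members each. ARAP2, a regulator of Arf GTPases, had members from 11.2 to 2528 kb away with a fold enrichment of 11.3 to 28.1 and 1 shared peak. The members of AUTS2, a neurodevelopmental gene tied to Polycomb complexes, were all in its introns and had fold enrichments from 10.2 to 19.2, beside 4 shared peaks. BCL11A, a repressor of fetal globin genes and a factor of lymphoid cells, had 8 shared peaks among its 6 members. The strongest (24.3) lay 861 kb from the TSS with the nearest MUTZ3 peak 98.1 kb away, and the others ranged from 10.0 to 15.1.

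**Figure D3:**
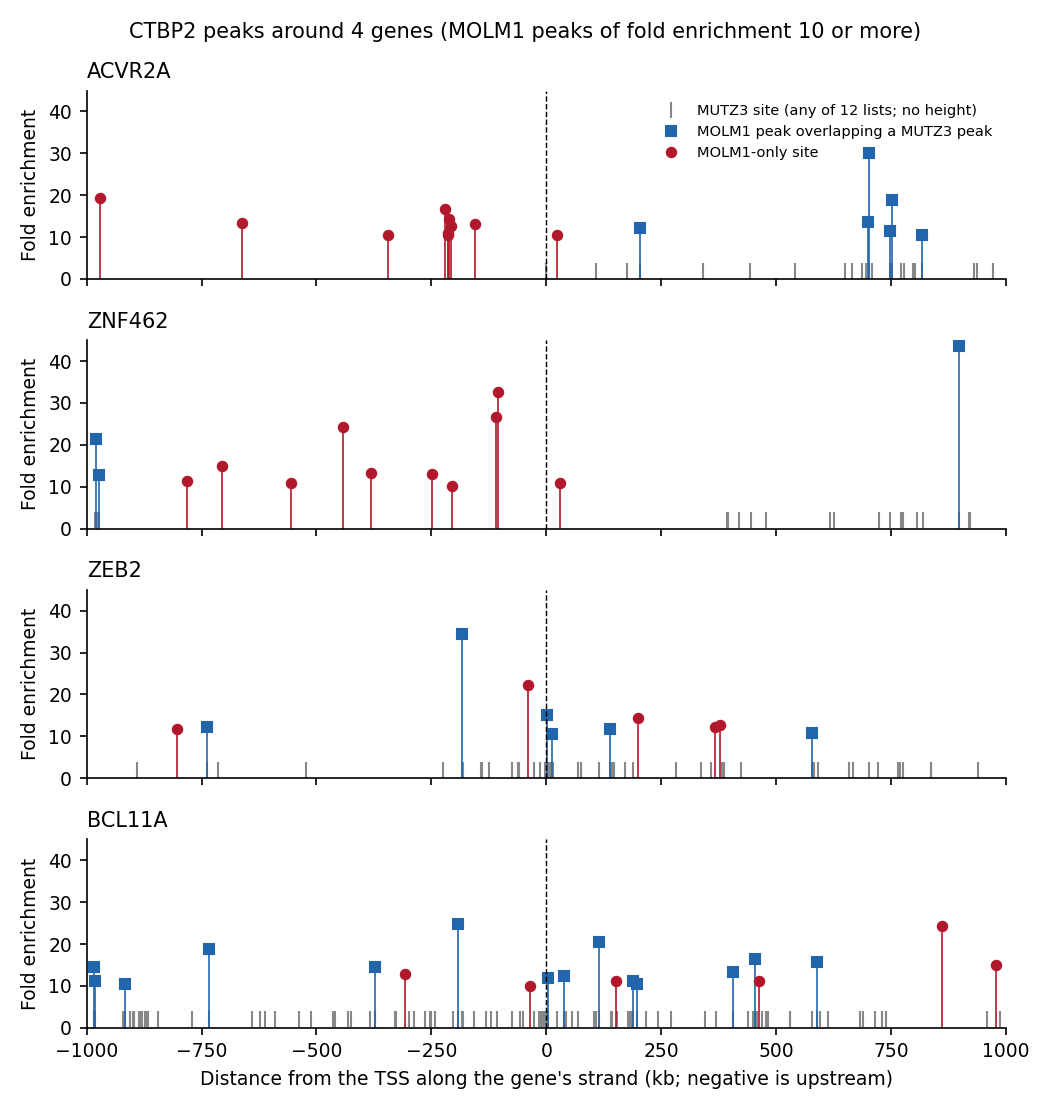
MOLM1 CTBP2 peaks of fold enrichment 10 or more (y axis) by distance from the TSS of ACVR2A, ZNF462, ZEB2 and BCL11A (x axis, kb along the strand of the gene, up to 1000 kb each way). Red circles are MOLM1-only sites, blue squares peaks that overlap a MUTZ3 peak, and grey ticks MUTZ3 sites of any of the 12 lists, drawn without height. Within 1000 kb of ZNF462 lie 10 MOLM1-only sites and 3 shared peaks, and around BCL11A lie 6 and 14 among 106 MUTZ3 sites.

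Members were found at genes of each of the 7 lists examined. The lists hold genes of blood lineages and CTBP partners, and 26 of their genes had a member. The genes named are described by their strongest member. Members were at 2 of 25 megakaryocyte and platelet genes (8%), 1 of 25 erythroid genes (4%), 6 of 26 granulocyte and monocyte genes (23.1%), 2 of 12 mast cell, basophil and eosinophil genes (16.7%), 3 of 31 lymphoid genes (9.68%), 5 of 24 stem and progenitor genes (20.8%) and 7 of 20 CTBP partners and corepressors (35%). All genes stood at 10.1%, and a shared peak was at 33.6% of all genes and at 32% to 75% of the genes of a list. Genes with long intergenic flanks take in more sites by this assignment, and the order of the lists depended on it. With a member within 100 kb of the TSS counted instead, 18.2% of all genes had one. In the order above, the lists then had 8 of 25, 5 of 25, 7 of 26, 3 of 12, 3 of 31, 5 of 24 and 5 of 20 genes.

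Among granulocyte and monocyte genes, IRF8, a regulator of monocyte and dendritic cell development, had the strongest member of any listed gene, with a fold enrichment of 24.8 in its intron, 17.7 kb from the TSS. A MUTZ3 peak lay 1.07 kb from it, so the locus is not without MUTZ3 binding. LTF (lactoferrin) had a member of 21.2, CD36 of 13.8, LYZ (lysozyme) of 11.4 and CSF3R, the G-CSF receptor, of 11.3, which lay 3.46 kb upstream of the TSS. The median over the members of this list was 11.4, beside 12.4 over all members.

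For mast cell, basophil and eosinophil genes, CPA3 had the promoter site given above and HDC, the enzyme of histamine synthesis, had a member of 10.2 in its intron. At lymphoid genes, ID2, an inhibitor of E proteins, had a member of 21.0 at 34.2 kb upstream, PAX5, the B cell factor, had one of 13.6 in its intron, and GATA3, a T cell factor, had its strongest 515 kb from the TSS. At megakaryocyte genes, FLI1 had a member of 11 in its intron with a MUTZ3 peak 0.906 kb away, and MEIS1 had one of 10.8, 98.6 kb upstream. BCL11A was the only erythroid gene of the list with a member.

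Stem and progenitor genes had weak members. These were SOX4, THY1, PROM1, ANGPT1 and MYB, whose list had a median of 10.5 over 7 members. The MYB member (10.3) lay in an intron 10.2 kb from the TSS.

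Of the CTBP partners, ZEB2, a repressor that binds CTBP through its own motifs, had 5 members, of which the strongest (22.3) lay 39.4 kb upstream and 13.1 kb from a MUTZ3 peak. The other 4 lay from 803 to 1224 kb upstream with fold enrichments of 11.8 to 15.9. ZNF217, a zinc-finger protein of corepressor complexes, had a member of 18.1 in its intron with a MUTZ3 peak 1.29 kb away. CDYL, a chromodomain corepressor, had one of 12.8 with a MUTZ3 peak 0.134 kb away. KLF3, a repressor that recruits CTBP2, had one of 12.2 with a MUTZ3 peak 2.77 kb away. CTBP2 itself had a member of 11.6 in its intron, 14.3 kb from the TSS and 1.2 kb from a MUTZ3 peak. HIC1 and TCF7L2 had members with a MUTZ3 peak 0.961 and 1.09 kb away.

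The sequence around the summit, which the rule did not use, also differed between members and shared peaks. AP-1 letters (TGANTCA) are a pattern with any middle base that includes the site of FOS and JUN dimers. The TGAATCA of the BCKDHB sequence matches too, and the middle bases were not counted apart. Within 100 bp of the summit, 744 members held AP-1 letters, which is 28.7% (27.04 to 30.5). Among shared peaks it was 15.9% (15.3 to 16.6), and in windows of the same length placed 2 kb downstream of each member it was 5.83% (5.00 to 6.80). The AREGB, LYRM7, ITGBL1, BCKDHB and ACVR2A sequences printed above are of this kind. Within 30 bp of the summit, the span of those sequences, the shares were 10.9% for members and 5.74% for shared peaks.

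This share fell with the number of MUTZ3 lists that held the peak. It was 21.9% in 1 to 4 lists, 15.4% in 5 to 11 lists and 10.7% (9.41 to 12.1) in all 12. CTBP2 peaks of MUTZ3 with a fold enrichment of at least 10 that overlapped no MOLM1 peak held the letters in 5.37% (3.02 to 9.35) of 205 peaks in unmodified cells, and in 3.64% of 2638 and 3.84% of 1249 peaks in the 2 untreated inducible libraries. Among these sets of strong peaks, AP-1 letters were most frequent in MOLM1-only sites and least frequent in MUTZ3 peaks without a MOLM1 peak. The MUTZ3 sets also differed in composition, with GC-box letters (CCGCCC) in 7.80%, 32.0% and 18.1% of them, beside 2.90% of the members. They were filtered against 1 list rather than 12 and were not split by TSS distance or base composition. Weak MOLM1-only peaks, below a fold enrichment of 10, stood at 23.6% (22.96 to 24.2).

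The difference between members and shared peaks was present within ranges of distance, strength and base composition. Farther than 1 kb from a TSS the shares were 28.7% of members and 17.2% of shared peaks. Over 4 ranges of fold enrichment, members ran from 27.6% to 32.3% and shared peaks from 12.9% to 18.9%. Below 45% GC, the shares were 27.9% and 15.7%, from 45 to 55% GC they were 30.9% and 18.3%, and above that 22.2% (17.7 to 27.5) and 13.03% (12.1 to 14.0). The gap to the nearest MUTZ3 peak made little difference either, with 26.6% of members up to 1 kb away and 28.6% of those over 50 kb away. Intergenic members held the letters in 31.3% and intronic ones in 26.3%. Among the 20 strongest members 4 held AP-1 letters, 6 ETS letters and 9 RUNX letters.

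ETS letters, bound by factors such as FLI1, ERG and SPI1, went the other way. They were found in 34.4% (32.5 to 36.2) of the members and 42.6% (41.7 to 43.4) of the shared peaks, and in 10.2% of the downstream windows. RUNX letters were at 31.5% (29.8 to 33.3) and 30.3% (29.5 to 31.1), with overlapping intervals, and at 13.4% downstream. The 3 motifs together left 779 members (30.1%) without a match, and 57 members (2.20%) held all 3. Members with AP-1 letters had ETS letters in 31.3% (28.1 to 34.7) and those without in 35.6% (33.4 to 37.8).

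GC-box letters (CCGCCC), common at promoters, were at 2.90% of the members, 14.8% of the shared peaks and 2.98% of the downstream windows. KLF letters (CACCC) were at 38.1%, 47.2% and 32.7%. Below 45% GC, KLF letters were at 25.96% of members and 25.5% of shared peaks. From 45 to 55% GC they were at 41.9% and 43.7%, and above that at 68.4% and 61.1%. Members were thus lower in KLF letters only from 45 to 55% GC, with overlapping intervals. GATA letters (GATAA) were as frequent in members as in their downstream windows, 29.5% in both. The longer AGATAA, which contains them, was at 16.2% (14.8 to 17.7) in members, 13.1% downstream and 13.5% in shared peaks. Below 45% GC, AGATAA was at 23.4% of members and 27.02% of shared peaks. From 45 to 55% GC it was at 12.2% and 14.8%, and above that at 5.82% and 5.95%. Members were thus not higher in AGATAA in any of these ranges, and the intervals overlapped in each. E-box letters (CANNTG), which include the next 3 motifs, were at 75.3%, 70.3% and 64.3% of members, shared peaks and downstream windows. CAGCTG was at 17.9% and 19.4% of members and shared peaks against 7.11% downstream of members. CACCTG, the type that ZEB factors bind, was at 14.6%, 16.0% and 16.9% and so no more frequent at the summits than in these windows. Downstream of the shared peaks, CAGCTG was at 9.66% and CACCTG at 20.7%. Downstream windows were not matched to the summits for base composition. CACGTG was at 2.51%, 3.98% and 1.93%, and the core of the CTCF site at 3.48%, 6.04% and 3.75%. Full-length letters of EVI1 were rare in all sets. The 10-letter site of its first zinc-finger domain was in 2 members (0.077%), 0.048% of the shared peaks and 0.039% of the downstream windows. GAAGATGAG, the site of its second domain, was in 12 members (0.464%), 0.677% of the shared peaks and 0.309% of the downstream windows. For both sites the intervals of these sets overlapped. The core AAGATGA of the second site was in 7.19% (6.25 to 8.25) of the members, 5.21% (4.83 to 5.61) of the shared peaks and 4.33% of the downstream windows. In the same ranges of GC content it was in 10.3% (8.59 to 12.2), 5.80% and 1.45% of members. Shared peaks stood at 9.06% (7.89 to 10.4), 6.12% and 2.34%, so members were higher only below 45% GC, with overlapping intervals. A match is a description of the reference sequence and does not show that a factor was bound.

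**Figure D4:**
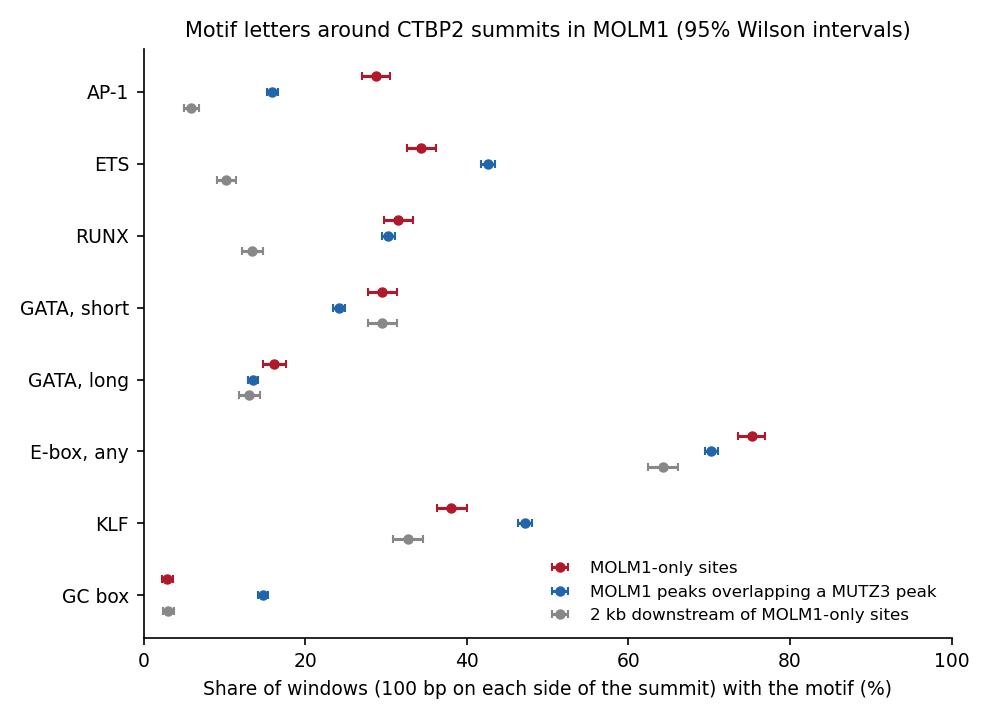
Share of windows, 100 bp on each side of the summit, that hold the letters of a motif on either strand (x axis, %) for 8 motifs (y axis; GATAA is the short and AGATAA the long GATA motif), in MOLM1-only sites (red), MOLM1 peaks that overlap a MUTZ3 peak (blue) and windows 2 kb downstream of the MOLM1-only sites (grey). Error bars are 95% Wilson intervals. The red point lies right of the blue for AP-1 (28.7% and 15.9%) and left of it for ETS (34.4% and 42.6%) and the GC box (2.90% and 14.8%).

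ETS and RUNX matches lay closer to the summits than matches in downstream windows did, and for AP-1 the contrast was smaller. The median distance of an AP-1 match from the summit was 37 bp in members, 39 bp in shared peaks and 48 bp in downstream windows. For ETS it was 31, 29 and 50 bp and for RUNX 35, 33 and 48 bp. ETS matches thus stood nearer to the summit than AP-1 matches in both groups. Of the members with AP-1 letters, 35.1% had a match within 25 bp of the summit, close to the 33.8% (51 of 151) of the downstream windows with these letters. For ETS the values were 40.3% and 23.5%. Members had 2.82 copies of AP-1 letters per 100 windows from 20 to 10 bp before the summit, and 1.04 and 0.696 in the outermost bins of 10 bp. In downstream windows these bins held 0.309, 0.193 and 0.193.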

How the data were processed

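ChIP-seq libraries of CTBP2 and EVI1 were examined as deposited peak lists, 13 of the 31 samples, and the other samples were not analysed here. Per the labels and submitters' processing notes, the authors aligned reads to hg19 with Bowtie 1.1.1 and called peaks library by library against an input (MACS2 2.1.2). The fold enrichment in the deposited lists is a ratio, signal at the summit over the local background. Significance is deposited as −log10 values of p and q, of which only the latter entered, in 1 alternative. The lists hold no counts, so depth is unknown.

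Groups came from the sample labels. Overlap meant 1 shared bp. Nearest TSS and place came from GENCODE release 44 mapped to GRCh37 (protein-coding genes, 5′ end of the gene). Motif letters were searched on both strands of GRCh37 within 100 bp of the summit, 15 motifs in all, of which 2 EVI1 motifs were added after the values were seen. Named sites were the 20 strongest members, the gene with the most members and the next 4, the 1 Mb windows with the most members (5, or 7 with ties), each listed gene with a member (1 is not reported here), and 3 peaks on each side of the fold limit. Members close to a TSS, sites printed for their sequence and NTM were named after their values were seen. The members and gene lists were chosen with earlier results of these data known.

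No test was run, since MOLM1 had 1 library and sites are not replicates. Alternatives changed the fold limit, the overlap, the MUTZ3 lists, the TSS set and the windows. Overlap, distance and motif counts were tested on simulated data and checked with bedtools 2.31.1. The software was Python 3.11.15, numpy 2.4.6, pandas 2.3.3, scipy 1.17.1 and matplotlib 3.10.9.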

Additional observations from a re-analysis of the deposited data

How the results depend on the processing

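No paired analysis was possible because the results come from no test and MOLM1 has 1 library. Values marked as moved left the 95% interval of the reported value, or changed a count by more than 1.5 times. A fold limit of 15 left 655 members, 7 genes of the lists with a member, 9.62% of members within 50 kb of another and 32.1% with AP-1 letters. Without MUTZ3 peaks within 1 kb the median TSS distance was 66090 bp, and with the MUTZ3 CTBP2 lists only it was 57340 bp with 26.5% within 50 kb. Counting the TSS of all annotated genes gave 4.75% within 1 kb and a median of 17750 bp (18.1% and 9456 bp for shared peaks), and counting every protein-coding transcript gave 2.86% and 37784 bp (17.4% and 15679 bp). Within 25 kb of another member lay 15.3%, and 50 bp on each side of the summit gave 10.0% for AGATAA and 17.9% for AP-1 (9.43% in shared peaks). The shorter distances and windows hold fewer matches by construction. A higher fold limit can only lower the counts of members and of listed genes, and counting all annotated genes can only shorten TSS distances. The cause of the other changes was not tested.

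With each MUTZ3 list left out in turn, the number of members ran from 2593 to 2807, the share within 1 kb of a TSS from 1.21% to 1.42%, the median distance from 60818 to 61907 bp, the share within 50 kb of another member from 23.8% to 24.7%, AGATAA from 15.9% to 16.5% and AP-1 from 28.4% to 28.9%. The other alternatives moved no value in this sense. A member within 100 kb of the TSS was at 36 listed genes in place of 26, although the counts of single lists changed as given above. A −log10 q of 20 in place of the fold gave 2939 members, an overlap of 50% gave 2670 and chromosomes X and Y added gave 2621. The AP-1 alternatives and the transcript starts were chosen after seeing the data. Members less than 50% repeat-masked were not run, since the reference used holds no lower-case bases. Unknown depth limits what the absence of a MUTZ3 peak means.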

Other observations

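Some members lay in regions without MUTZ3 sites, and these were picked after their values were seen. Of the 1458 windows of 1 Mb with a member, 30 had no MUTZ3 site of any of the 12 lists, and these held 50 of the 2588 members. How many of all 2897 windows had no MUTZ3 site was not counted, so this is not a trait of the members. The members farthest from a MUTZ3 peak were a pair nearest to KLHL1, a Kelch-like gene, on chromosome 13, which were 1716 and 1119 kb from the nearest MUTZ3 peak with fold enrichments of 10.9 and 10.8. Next was one nearest to ADGRL3, an adhesion receptor gene, on chromosome 4, 1029 kb from a MUTZ3 peak with 10.1. All of these sites were weaker than the median member. All held ETS letters near the summit, as did 34.4% of all members, and none held AP-1 or RUNX letters. They are too few to show a trait of remote sites.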
